A study of Mus musculus with 4 samples.

Results

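The activator protein 1 (AP-1) genes Fos, Fosb, Fosl1, Fosl2, Jun, Junb and Jund were examined together with Atf3 in long-term haematopoietic stem cells (HSCs) of mice, 6 months after low-dose γ-irradiation and transplantation. The 8 genes were taken by symbol from the array's gene annotation, with 1 probe set each, out of 23185 genes with a symbol. Marrow cells lacking lineage antigens and positive for ckit and Sca received 0, 0.02, 0.1 or 0.5 Gy and were then given to lethally irradiated mice. After 6 months, cells negative for lineage antigens, Flk2 and CD48 and positive for ckit, Sca and CD150 were sorted, and total RNA of each dose went onto 1 array. All 4 groups, the 0 Gy group included, thus passed through transplantation into a lethally irradiated host and the sort that followed. The labels name no strain, sex, age, number of mice behind each array or donor marker, so cells of the host itself cannot be told apart from transplanted ones. With 1 array per dose there is no spread within a dose, and a difference between single doses has no replicate check. In bulk RNA, fewer cells of a kind and less RNA per cell cannot be told apart.

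AP-1 is a family of paired transcription factors that carry a basic region and a leucine zipper. JUN proteins can pair with each other, whereas FOS proteins need a partner such as a JUN protein, and the pairs bind the TPA response element (TRE). Atf3 belongs to the related ATF branch, can pair with JUN proteins and binds the cyclic AMP response element (CRE). Transcription of several of these genes starts within minutes of a stimulus, through MAP kinases, and their transcripts are short-lived. In blood stem cells they are known both as response genes and as regulators, Junb being a brake on stem cell expansion in mice.

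The 5 promoter windows that held a motif of this family or a TATA box are shown first, since AP-1 genes are known to be controlled by such factors themselves. Of the 8 genes, 7 had a window in the RefSeq promoter table (GRCm38.p6), each of 250 bases before and 50 after the gene's start, and Fosl1 is named only. Capitals mark letters of 6 motifs searched on both strands: the TRE (TGACTCA or TGAGTCA), a TRE variant (TGACATCA or TGATGTCA), the CRE (TGACGTCA), the CRE core (TGACG or CGTCA, which every CRE contains), the CArG box and the TATA box letters (TATAAA or TTTATA). Fos lies at chr12:85473640-85473939, plus strand, Fosb at chr7:19309996-19310295, minus strand, Jun at chr4:95052173-95052472, minus strand, Junb at chr8:84978699-84978998, minus strand and Atf3 at chr1:191183284-191183583, minus strand.
Fos: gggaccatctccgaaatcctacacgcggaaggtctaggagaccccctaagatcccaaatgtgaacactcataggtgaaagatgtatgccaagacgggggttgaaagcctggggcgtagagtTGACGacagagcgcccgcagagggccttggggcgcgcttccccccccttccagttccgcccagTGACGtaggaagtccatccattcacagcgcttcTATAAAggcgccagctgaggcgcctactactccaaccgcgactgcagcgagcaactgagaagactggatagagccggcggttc
Fosb: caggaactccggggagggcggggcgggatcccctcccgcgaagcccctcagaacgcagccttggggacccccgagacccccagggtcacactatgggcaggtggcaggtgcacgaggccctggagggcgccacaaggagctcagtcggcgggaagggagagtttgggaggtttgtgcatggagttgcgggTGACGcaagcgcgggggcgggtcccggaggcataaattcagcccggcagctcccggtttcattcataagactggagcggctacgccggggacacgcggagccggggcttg
Jun: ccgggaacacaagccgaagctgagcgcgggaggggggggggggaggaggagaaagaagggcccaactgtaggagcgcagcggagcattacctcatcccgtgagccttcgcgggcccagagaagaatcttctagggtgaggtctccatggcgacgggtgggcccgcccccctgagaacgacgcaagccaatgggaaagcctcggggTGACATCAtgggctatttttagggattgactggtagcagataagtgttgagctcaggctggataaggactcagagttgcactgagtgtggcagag
Junb: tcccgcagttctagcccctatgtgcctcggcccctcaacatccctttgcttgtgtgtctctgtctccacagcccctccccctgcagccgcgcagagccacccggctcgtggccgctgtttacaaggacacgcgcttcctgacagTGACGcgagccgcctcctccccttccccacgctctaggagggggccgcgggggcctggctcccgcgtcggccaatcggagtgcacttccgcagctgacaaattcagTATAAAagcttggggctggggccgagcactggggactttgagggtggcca
Atf3: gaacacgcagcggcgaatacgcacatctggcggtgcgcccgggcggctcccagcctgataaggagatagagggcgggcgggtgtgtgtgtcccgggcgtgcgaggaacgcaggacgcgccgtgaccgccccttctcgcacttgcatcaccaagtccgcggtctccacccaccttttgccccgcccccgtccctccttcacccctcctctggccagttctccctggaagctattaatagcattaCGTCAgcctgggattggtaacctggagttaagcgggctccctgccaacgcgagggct

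The CRE core was found in the windows of 4 genes (Fos, Fosb, Junb and Atf3), against 20.8% of all 32851 windows in the table. In Fos it began at -129 and at -66 from the gene's start, in Fosb at -60, in Junb at -106 and in Atf3 at -7. Jun carried the TRE variant TGACATCA from -45 to -38, letters present in either orientation in 3.62% of all windows. TATA box letters were present in Fos and Junb, against 13.6% of all windows. They ran from -33 to -28 in Fos, but from 1 to 6 in Junb, at the annotated gene start itself. The full TRE (5.20% of all windows), the full CRE (1.79%) and the CArG box (1.63%) were in none of the 7 windows, and Fosl2 and Jund held none of the 6 motifs. A match of letters is a description of the window and not a binding site. Sequence outside the windows was not searched, so a motif absent here may still lie farther from the gene's start.

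**Figure D1:**
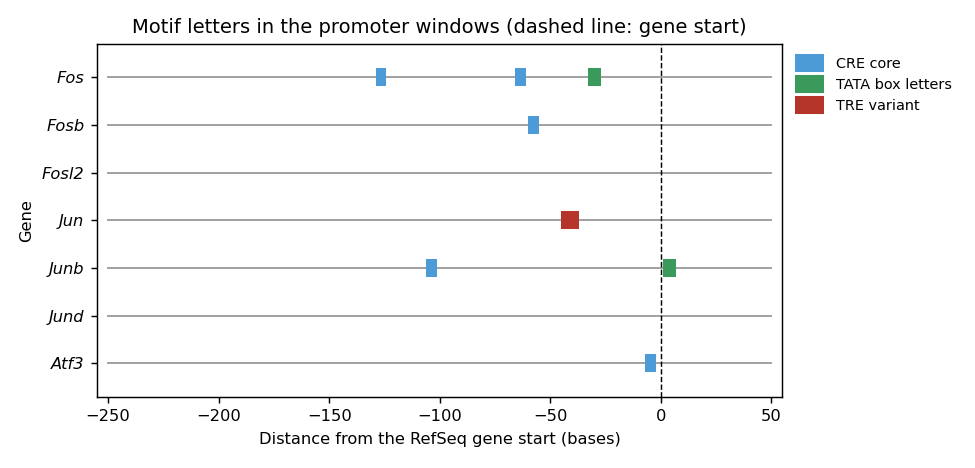
Motif letters in the promoter windows of 7 genes, by distance in bases from the RefSeq gene start (dashed line). Blue bars are the CRE core, red the TRE variant and green the TATA box letters; Fos has 2 CRE cores, and the Fosl2 and Jund lines are empty.

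Of 8 listed long-term HSC genes, 6 were measured (Kit, Slamf1, Procr, Hlf, Mecom and Fgd5), and all 6 passed the filter on low values, a mean over the 4 arrays of at least 4.06, which kept 11593 genes. Of the genes for the excluded surface proteins, Cd48 did not pass it, whereas Flt3, which encodes Flk2, did, with log2 intensities of 4.46, 4.76, 5.44 and 4.76 at 0, 0.02, 0.1 and 0.5 Gy. The arrays had median log2 intensities of 4.01 to 4.07, and the precision is limited by the number of arrays. All 8 AP-1 genes passed the filter, and each had 4 different values.

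The 0 Gy array had the lowest value of 7 of the 8 genes, all but Fosl1. Values above 0 Gy on all 3 irradiated arrays were thus found for 7 of 8 genes, against 17.9% of all genes kept. Related lists of genes kept, described further on, held the same form in 12 of 19 sorting and dissociation response genes, 7 of 16 phosphatases and feedback genes, 4 of 10 AP-1 targets, 5 of 15 further leucine zipper genes and 2 of 14 upstream kinases and ternary complex factors. Whether the AP-1 genes differ from these lists was not tested. Of the 24 differences from 0 Gy, 23 were above 0. The median log2 difference of the 8 genes was 0.60 at 0.02 Gy, 0.47 at 0.1 Gy and 0.49 at 0.5 Gy, beside 0.00 over all genes kept at each dose. All 3 differences of a gene share the single 0 Gy array, so they do not support each other.

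Single steps of 2-fold or more were few. At 0.02 Gy, 1 of the 8 genes (Fosl2) was at least 2-fold higher than at 0 Gy and 0 were lower, against 2.48% of all genes kept that were higher and 1.55% that were lower. At 0.1 Gy this was Fosb alone, against 1.59% higher and 2.68% lower among all genes kept. At 0.5 Gy it was Atf3 alone, against 1.63% and 3.01%. A 1.5-fold level was reached upwards by 4 of 8 genes at each dose, by Fosb and Jund at all 3 doses, by Fosl2 and Junb at 0.02 Gy, and by Jun and Atf3 at 0.1 and 0.5 Gy. The background for this level was 6.44% of all genes kept at 0.02 Gy, 5.5% at 0.1 Gy and 5.92% at 0.5 Gy. Downwards, Fosl1 passed this level at 0.5 Gy, where 8.25% of all genes kept did, and 0 of 8 did at 0.02 Gy (6.2% of all) or at 0.1 Gy (7.48%). The pair above 1.5-fold at all 3 doses, Fosb and Jund, compares with 1.5% of all genes kept.

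**Figure D2:**
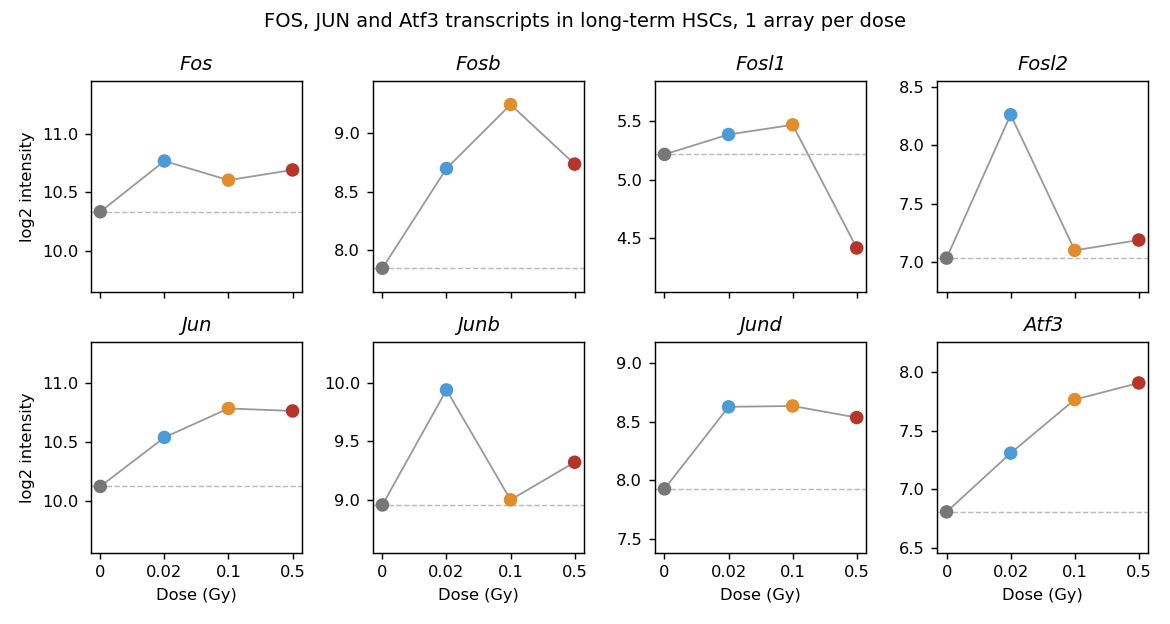
Deposited log2 intensity (vertical axis) of each gene by dose (horizontal axis), 1 point per array, with lines only to guide the eye, a dashed line at the 0 Gy value and panels that span the same 1.8 log2 units. The 0 Gy point is the lowest in 7 of 8 panels. Fos, Fosl2 and Junb are highest at 0.02 Gy, Fosb, Fosl1, Jun and Jund at 0.1 Gy and Atf3 at 0.5 Gy.

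Among the FOS genes, Fos (Entrez gene 14281), the founding immediate early gene, had log2 intensities of 10.33, 10.77, 10.60 and 10.69 at 0, 0.02, 0.1 and 0.5 Gy. All 3 irradiated arrays lay above the 0 Gy array and within 0.16 of each other. The log2 differences from 0 Gy were 0.43, 0.27 and 0.36, and no other of the 8 genes had a smaller range over the 4 arrays (0.43).

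Fosb (14282), which also gives rise to a truncated, long-lived protein, had log2 intensities of 7.85, 8.70, 9.25 and 8.74 at 0, 0.02, 0.1 and 0.5 Gy. It was 1.81-fold, 2.64-fold and 1.85-fold higher at 0.02, 0.1 and 0.5 Gy than at 0 Gy. Its log2 difference at 0.1 Gy, 1.40, was the largest of the 24 and exceeded those of 99.2% of all genes kept. The 0.02 and 0.5 Gy arrays were close to each other, 0.04 apart, and both below the 0.1 Gy array.

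Fosl2 (14284), which encodes the FOS-related protein Fra-2, had log2 intensities of 7.03, 8.26, 7.10 and 7.19 at 0, 0.02, 0.1 and 0.5 Gy. Only the 0.02 Gy array stood apart, 2.34-fold above 0 Gy, while the other 2 irradiated arrays were within 0.15 of the 0 Gy value. Fosl2 was therefore the 1 gene of the 8 that was at least 2-fold lower at 0.1 than at 0.02 Gy (log2 difference -1.16, against 3.23% of all genes kept) and at 0.5 than at 0.02 Gy (-1.07, against 3.3%).

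Fosl1 (14283), which encodes Fra-1, had log2 intensities of 5.22, 5.39, 5.47 and 4.42 at 0, 0.02, 0.1 and 0.5 Gy. It was the exception to the common direction, with log2 differences from 0 Gy of 0.17, 0.25 and -0.80. The 0.5 Gy array alone was low, and the difference of 0.5 from 0.1 Gy was -1.05, a size of 2-fold or more downwards that 1.93% of all genes kept and no other of the 8 reached. Its log2 intensity at 0.5 Gy was close to the filter level of 4.06.

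Among the JUN genes, Jun (16476), which encodes c-Jun, had log2 intensities of 10.12, 10.54, 10.79 and 10.77 at 0, 0.02, 0.1 and 0.5 Gy. The differences from 0 Gy were 0.42, 0.67 and 0.64, and the 0.1 and 0.5 Gy arrays were 0.02 apart. Jund (16478), known in many cells as the member present without stimulation, had log2 intensities of 7.93, 8.63, 8.64 and 8.54. Its 3 irradiated arrays lay within 0.10 of each other, the closest of the 8 genes, and 0.61 to 0.71 above the 0 Gy array.

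Junb (16477) had log2 intensities of 8.96, 9.94, 9.0 and 9.32 at 0, 0.02, 0.1 and 0.5 Gy. As with Fosl2, the 0.02 Gy array was the highest, 1.98-fold above 0 Gy, and the 0.1 Gy array was level with the 0 Gy array, 0.04 above it. Unlike Fosl2, whose 0.5 Gy value was near that of 0.1 Gy (0.09 above it), Junb was 0.32 higher at 0.5 than at 0.1 Gy. These 2 differences between single arrays were not tested against each other.

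Atf3 (11910), a stress-induced factor best known as a repressor, had log2 intensities of 6.81, 7.31, 7.77 and 7.91 at 0, 0.02, 0.1 and 0.5 Gy. It was the 1 gene of the 8 whose 4 values ascended in the order of dose, an order found in 1.94% of all genes kept. It was 1.42-fold, 1.94-fold and 2.15-fold higher at 0.02, 0.1 and 0.5 Gy than at 0 Gy. The step between 0.1 and 0.5 Gy was 0.14, smaller than the 0.46 between 0.02 and 0.1 Gy and the 0.50 between 0 and 0.02 Gy, although it spans the widest interval of dose.

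**Figure D3:**
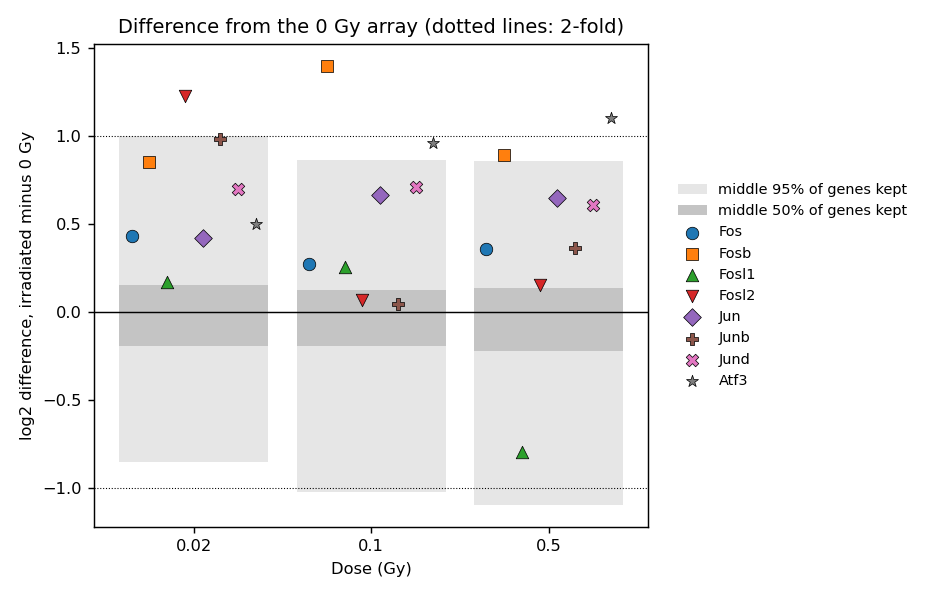
Log2 difference from the 0 Gy array (vertical axis) at each dose (horizontal axis), 1 symbol per gene, over grey bands that hold the middle 50% and 95% of the 11593 genes kept. Fosl2 at 0.02 Gy, Fosb and Atf3 at 0.1 Gy and Fosb and Atf3 at 0.5 Gy lie above the wider band, and Fosl1 at 0.5 Gy is the 1 symbol below 0.

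The irradiated arrays were also compared with the 0 Gy array in limma, with the 3 doses taken as 1 group, the lone 0 Gy array assumed to vary like them and differences between doses counted as error. Over 11593 genes this fit called 0 genes at an adjusted p of 0.05 (0%), and 1260 had an unadjusted p under 0.05 (10.9%), among them 3 of the 8 genes (Fos, Jun and Jund). The lowest adjusted p of the 8 genes was that of Jund, with 8.60 ± 0.06 on irradiated arrays (SD, n = 3) against 7.93 at 0 Gy, a log2 difference of 0.67 (SE 0.06, limma adjusted p = 0.188). Jun had 10.70 ± 0.14 against 10.12, a difference of 0.58 (SE 0.14, limma adjusted p = 0.385), and Fos 10.69 ± 0.08 against 10.33, a difference of 0.35 (SE 0.09, limma adjusted p = 0.386). The two-sided limma test gave adjusted p of 0.466 for Fosb, with a difference of 1.05 (SE 0.31), and of 0.561 for Atf3, with 0.85 (SE 0.32). Junb at 0.46 (SE 0.48), Fosl2 at 0.48 (SE 0.65) and Fosl1 at -0.13 (SE 0.59) had differences no larger than their errors and an adjusted p of 1. Without the 0.02 Gy array the differences of Fosl2 and Junb were 0.11 and 0.20, and without the 0.5 Gy array that of Fosl1 was 0.21. The fit had 2 residual degrees of freedom, so a p that misses the threshold does not show equal levels.

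Other parts of the pathway were read from lists of partners, upstream kinases, feedback genes and targets, in which all counts are of genes at least 1.5-fold from 0 Gy among those kept. Their shares stand against the same percentages of all genes kept as above.

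Of 18 further basic leucine zipper genes that can pair with AP-1 proteins or relate to them, 15 were kept, with median log2 differences of 0.18, 0.00 and -0.01 at 0.02, 0.1 and 0.5 Gy. At each dose 2 were higher, and 1 was lower at 0.02 Gy, 1 at 0.1 Gy and 2 at 0.5 Gy. Ddit3, which encodes the stress factor CHOP, was higher at all 3 doses, with log2 intensities of 6.43 at 0 Gy and 7.40, 7.81 and 7.57 at 0.02, 0.1 and 0.5 Gy. The second higher gene was Maf at 0.02 Gy (0.59), Jdp2, a JUN dimerization partner, at 0.1 Gy (0.65) and Atf1 at 0.5 Gy (0.78). The lower ones were Mafg, a small MAF protein, at 0.02 Gy (-1.11), Batf2 at 0.1 Gy (-1.19), and Batf, a JUN partner in lymphocytes, at 0.5 Gy (-0.99) with Maf (-0.64).

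The upstream kinases and ternary complex factors, which carry the signal to the FOS and JUN promoters, had medians near 0 (-0.06, -0.02 and -0.10 over 14 of 20 listed genes). At 0.02 Gy 1 of them was higher, Rps6ka3, which encodes the kinase RSK2, at 0.96, and 0 were lower. At 0.1 Gy 0 genes passed in either direction, Map2k1, the ERK kinase MEK1, being at -0.56. At 0.5 Gy 0 were higher and 1 was lower, the ternary complex factor gene Elk1 at -0.70, with its relative Elk3 at -0.48. Of the 20 genes, 5 had no row with a symbol here and are not analysed.

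Phosphatases and early feedback genes, many of which dampen MAP kinase signals, were split in direction. Their medians were 0.12, 0.20 and 0.02. Of 16 genes kept of 17, 2 were higher and 1 lower at 0.02 Gy, 1 higher and 2 lower at 0.1 Gy and 3 higher and 4 lower at 0.5 Gy. Dusp5, a phosphatase for ERK, had log2 intensities of 5.41, 6.98, 5.86 and 6.61 at 0, 0.02, 0.1 and 0.5 Gy. Spry2, an inhibitor of receptor tyrosine kinase signals, was at 0.85, 1.0 and 0.05 relative to 0 Gy. Its relative Spry4 was at -0.91, -0.85 and -0.85, and Spred2 was at -0.04, 0.24 and -1.27. The other genes past the level were Spry1, lower at 0.1 Gy (-0.63) and 0.5 Gy (-0.64), and at 0.5 Gy Dusp2 (0.61), Dusp6 (0.72) and Dusp16 (-0.90).

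Of 20 genes known as AP-1 targets in various cells, 10 were kept, so this list covers few of them. Their median log2 differences were 0.28, -0.06 and 0.13, and at 0.02 Gy 4 genes passed upwards and 1 downwards. Plaur, the urokinase receptor gene, had log2 intensities of 6.58, 7.72, 6.73 and 6.89 at 0, 0.02, 0.1 and 0.5 Gy, and Ptgs2, which encodes cyclooxygenase 2, had 6.41, 7.46, 6.56 and 6.90. Both were thus highest at 0.02 Gy, and Hbegf (0.79) and Gadd45b (0.62) were the other higher genes there. Ccnd1, which encodes cyclin D1, was lower than at 0 Gy at each dose, at -0.70, -1.29 and -0.31. At 0.1 Gy Tnf was the 1 higher gene (1.55, with a 0 Gy value of 4.70 near the filter level), and Ccnd1 and Hmox1 (-0.72) were lower. At 0.5 Gy Tnf (0.60) was higher and Hbegf (-0.78) lower.

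**Figure D4:**
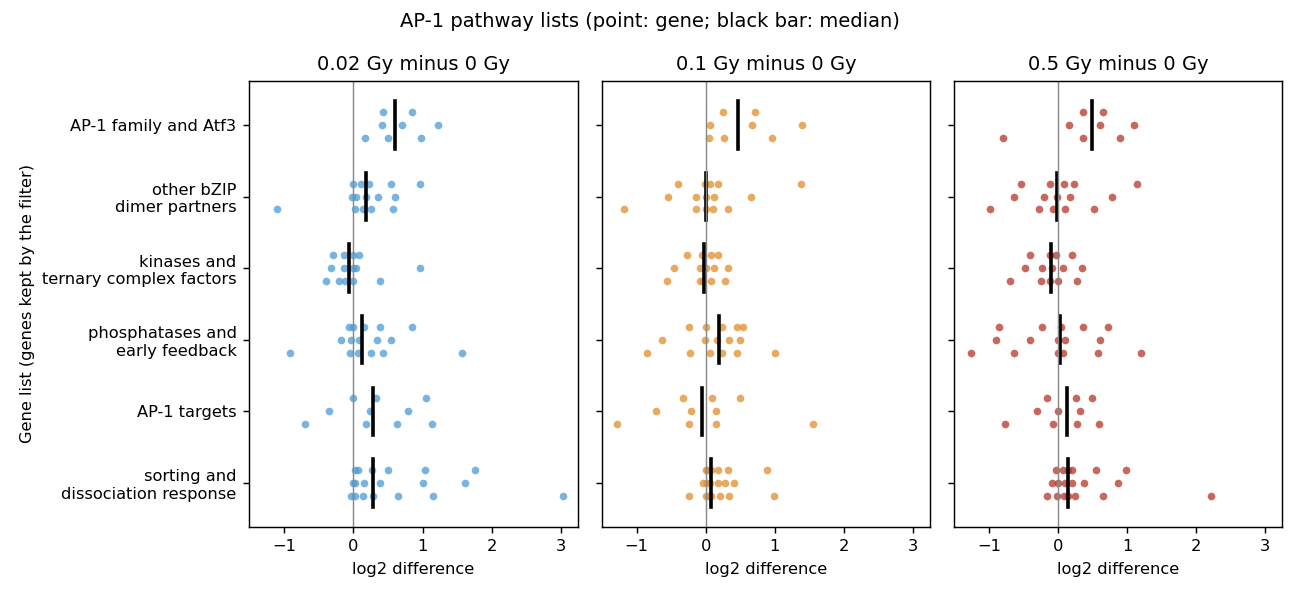
Log2 differences from 0 Gy (horizontal axis) of the genes kept in each list (vertical axis), 1 panel per dose; points are genes and black bars medians. The median of the AP-1 genes and Atf3 lies between 0.47 and 0.60 at the 3 doses, and those of the kinases and ternary complex factors between -0.10 and -0.02.

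Genes of the response to cell sorting and tissue dissociation, in which AP-1 genes are known to take part, were read beside them. Of 19 kept of 21, 7 were at least 1.5-fold higher at 0.02 Gy (6.44% of all genes kept), 2 at 0.1 Gy (5.5%) and 4 at 0.5 Gy (5.92%), and 0 were as much lower at any dose. As given above, 12 of the 19 were above 0 Gy on all 3 irradiated arrays, as 7 of the 8 AP-1 genes were. Some of the 12 were only slightly above it, such as Hsp90aa1 at 0.02, 0.02 and 0.08. The medians of the 19 were 0.29, 0.07 and 0.15. Socs3, a feedback inhibitor of cytokine signals, was at 3.03, 0.98 and 2.22, from a 0 Gy value of 4.50 near the filter level. Btg2, an antiproliferative p53 target, was at 1.76, 0.07 and 0.65. Cebpd was at 1.62 at 0.02 Gy and the heat shock gene Hspa1a at 1.14, both from 0 Gy values (3.67 and 3.87) below the filter level. The other heat shock genes kept, Hsp90aa1, Hspa8, Hsph1, Dnaja1 and Dnajb1, lay between -0.04 and 0.15 at 0.02 Gy. Ier2, Ier3 and Klf4 were the other 3 higher genes at 0.02 Gy. At 0.1 Gy the higher genes were Socs3 and Klf6, and at 0.5 Gy Socs3, Klf6, Klf4 and Btg2. The values of Btg2, Ier3 (1.04, 0.03 and 0.07) and Klf4 (1.01, 0.07 and 0.87) were all highest at 0.02 Gy. Among the AP-1 genes Fos, Fosl2 and Junb were highest there, whereas Klf6 of this list was highest at 0.5 Gy. The share of all genes kept that were highest at 0.02 Gy was not worked out. The part that handling of the cells has in the AP-1 values was not tested.

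Markers of the HSC gate and of other cell types differed between the arrays too. The summed linear intensity of the 6 HSC genes relative to 0 Gy was 1.43 at 0.02 Gy, 1.06 at 0.1 Gy and 1.02 at 0.5 Gy, and 3 of the 6 were at least 1.5-fold higher at 0.02 Gy. For Flt3 and Cd48 together it was 0.898, 1.53 and 1.13. For 6 measured B and plasma cell genes it was 1.86, 0.554 and 0.441, and at 0.02 Gy 3 of the 6 were at least 1.5-fold higher, Cd79a (log2 difference 2.81), Cd79b (1.04) and Jchain (0.93), while Ms4a1 lay between 2.23 and 2.32 on the 4 arrays. For 7 monocyte and macrophage genes the sum was 2.95, 0.927 and 0.775. At 0.02 Gy Cd68 and Ly6c2 were the 2 of these 7 at least 1.5-fold higher, and Csf1r and Adgre1 had the same values, 3.11 and 3.22, as at 0 Gy. For 10 neutrophil genes the sum was 2.13, 3.72 and 1.95. The 1.5-fold level was passed upwards by 3 of the 10 at 0.02 Gy and by 6 at each of the other doses, not all the same. Camp and S100a9 were among the 6 at 0.1 Gy, and Prtn3 and Ly6g stood in their place at 0.5 Gy. S100a8 passed it downwards at 0.02 Gy (log2 difference -1.08). Sums were 0.724, 2.27 and 3.08 for 4 erythroid genes, 0.895, 0.688 and 0.830 for 5 megakaryocyte genes, and 0.669, 0.612 and 0.661 for 6 endothelial and stromal genes. For 6 T and NK cell genes they were 0.745, 1.32 and 1.89, where Nkg7 (log2 intensity 9.92 at 0.5 Gy against 8.90 at 0 Gy) was the 1 gene at least 1.5-fold higher at 0.5 Gy, and Cd3e, Cd3g and Cd4 were below the filter level on all 4 arrays. These linear sums weigh the brightest genes most. Among the neutrophil genes Prtn3 was the brightest at 0.02 Gy, with a log2 intensity of 8.81. Among the erythroid genes it was Car1 at 0.5 Gy, with 10.34 against 8.42 at 0 Gy. The log2 differences of the other erythroid genes at 0.5 Gy were 1.19 (Klf1), 0.64 (Tfrc) and 0.14 (Epor). The part of these cell types in the AP-1 values was not tested.

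Likeness of pattern was measured as the Euclidean distance between the 3 log2 differences from 0 Gy of 2 genes, over the 4 arrays and 10509 genes searched. Nearest to Fos were Fpgt (distance 0.04), Ostc (0.06) and Uvrag (0.06), and nearest to Jun were Cdan1 (0.02), R3hcc1l (0.05) and Tubgcp4 (0.07). Nearest to Atf3 were Ubtd1 (0.14), Klf6 (0.15) and Snx30 (0.21). Klf6, an early response transcription factor, had log2 intensities of 8.39, 8.88, 9.27 and 9.36 at 0, 0.02, 0.1 and 0.5 Gy. Its values ascended with dose as those of Atf3 did, and so did those of Ubtd1 and Snx30. That likeness follows from choosing these genes for their nearness to Atf3. Within the family, the gene nearest to Jun was Jund (0.29), and the gene farthest from both Jun and Atf3 was Fosl1 (1.52 and 2.05). With 4 arrays, such nearness is a description only.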

How the data were processed

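The values are log2 intensities as deposited, with 1 row per Entrez gene ID, and their base was inferred from a range of 1.22 to 13.0. Per the labels' protocols, biotin-labelled cDNA was made with an Affymetrix whole-transcript kit. Partek is named as a tool in the submitters' processing notes. How background was corrected and arrays normalized is not given in the sources used here, nor is a build. Symbols came from the platform table, brought up to date through Entrez IDs in RefSeq, for 23185 of 25206 probe sets. Values were used unchanged, and genes with a mean over the 4 arrays of at least the median of gene means (4.06) were kept. Arrays were grouped by the labelled dose, and each dose was compared with 0 Gy as a log2 difference. The lmFit and eBayes functions of limma 3.58.1 (R 4.3.3), tested on simulated data, with Benjamini-Hochberg adjustment over all 11593 genes kept and a threshold of 0.05, compared 3 irradiated arrays with 1 at 0 Gy on 2 residual degrees of freedom.

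The genes and lists were chosen with earlier results of these data known. From each list the 4 genes with the largest absolute difference at any dose were to be named, with the 3 genes nearest in pattern to Fos, Jun and Atf3, left out being clone-named, predicted, immunoglobulin and olfactory receptor genes. Further genes behind counts were named after their values were seen: Maf, Jdp2, Atf1, Spry1, Dusp2, Dusp6, Dusp16, Hbegf, Gadd45b, Hmox1, Ier2, Ier3 and Klf4. The heat shock genes other than Hspa1a were also named after their values were seen. Alternatives were quantile normalization, median centring, other filters and fold levels, another control, an intensity trend and leaving out each irradiated array.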

Additional observations from a re-analysis of the deposited data

How the results depend on the processing

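Quantile normalization and median centring kept the sign of all 24 differences of the 8 genes from 0 Gy, with shifts of at most 0.08 and 0.04, and changed none of the counts of these 8 genes by fold or direction. The limma difference of Fosb was 1.05 in the main fit, under the stricter filter and without a filter, and 1.075 under quantile normalization. At a 1.5-fold level, 4 genes were higher at each dose and 1 was lower at 0.5 Gy, against the shares of all genes given above. At a 3-fold level, 0 were higher at each dose, as were 1.01%, 0.50% and 0.50% of all genes kept at 0.02, 0.1 and 0.5 Gy. With the mean of the other 3 arrays in place of 0 Gy, 0 genes were 2-fold higher at 0.1 Gy (1.04% of all) and 0.5 Gy (0.93%). Under that control the log2 difference of Fosb at 0.1 Gy was 0.82 and that of Atf3 at 0.5 Gy 0.61, since it holds the other irradiated arrays. Under it Jun (-0.02) and Atf3 (-0.19) at 0.02 Gy, Fosl2 (-0.39) and Junb (-0.41) at 0.1 Gy and Fosl2 (-0.28) at 0.5 Gy turned below 0. Other results, on the 7 genes above 0 Gy on all 3 irradiated arrays, were added after the data were seen. Of these 7, 2 were at least 1.5-fold above 0 Gy at each dose (1.5% of all genes kept) and 0 at least 2-fold. Leaving out 1 irradiated array gave 7 to 8 genes above 0 Gy on the arrays left. That condition is looser than the one on all 3 irradiated arrays, so the share of 17.9% does not serve for it. For the 2-fold and leave-out counts no share of all genes was worked out. Without a filter limma called 213 of 23185 genes, none of them an AP-1 gene or Atf3. Under the 7 alternatives to the limma fit 0 of the 8 genes were called, with a lowest limma adjusted p between 0.0971 and 0.595. The limma difference of Fosl1 ran from -0.31 to 0.21 when 1 irradiated array was left out, turning above 0 without 0.5 Gy. Without 0.02 Gy the limma difference of Fosl2 was 0.11 in place of 0.48 and that of Junb 0.20 in place of 0.46. When 1 irradiated array was left out, the limma difference ran from 0.31 to 0.40 for Fos, 0.53 to 0.66 for Jun and 0.655 to 0.70 for Jund. The 0 Gy array is single and could not be left out, and no alternative bears on its own error. No paired analysis was possible because each dose has 1 array and the labels carry no replicate numbers.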

Other observations

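Exact ties between arrays were common in the deposited values, at 13.8% to 16.5% of genes kept for each pair of arrays. In 399 of 11593 genes kept (3.44%) the 3 irradiated arrays had the same value to the last deposited digit and the 0 Gy array another. With 0.02, 0.1 or 0.5 Gy as the odd array the counts were 395, 332 and 479 (3.41%, 2.86% and 4.13%). Of the genes in the AP-1 pathway lists, 4 had this form: Atf2, a JUN partner, with a log2 intensity of 8.82 on each irradiated array against 8.65 at 0 Gy, the serum response factor gene Srf with 7.69 against 7.61, Spred1 with 8.25 against 8.19 and Dnajb1 with 7.98 against 8.02. These genes were named for their ties after their values were seen. None of the 8 genes of the AP-1 family and Atf3 had equal values on any pair of arrays. The origin of the ties was not tested.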
